A study of Callithrix jacchus with 6 samples.

Results

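The 127 genes described here were among the 200 most abundant genes of adult marmoset liver and outside the 500 most abundant genes of marmoset hepatic progenitor cells (MHPCs). They were chosen from 32323 listed genes by ranking every gene on its mean over 3 adult liver libraries and on its mean over 3 MHPC libraries. The values were FPKM, the reads of a gene per kilobase of its length and per 1000000 reads of the library. Of the 200 leading adult liver genes, the remaining 73 ranked 500 or better in MHPCs as well. Because the MHPC and adult liver means chose the genes, every difference between MHPCs and adult liver among them is a description, and a count of members called is given only beside the share of all genes called.

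The study compared an immortalized marmoset progenitor line with the organ it came from. The MHPC libraries were cultures of 1 clone of fetal marmoset liver cells that carried the SV40 large T antigen and EGFP by lentivirus, labelled as passage 15 to 30. The adult liver libraries came from separate marmosets labelled as 5 to 10 years old. The study's methods list other passages and ages than the labels, and its figure legends code the adult animals as male or female. None of these sources ties a passage, an age, a sex or an animal to a numbered library. The spread between MHPC libraries therefore covers cultures of 1 clone and not animals. Each p-value sets the difference of the group means against 1 spread pooled over the cultures and the animals.

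The adult liver makes most of the proteins of blood plasma, and hepatocytes release albumin, transport proteins, lipoproteins, clotting factors and complement into the circulation. In inflammation, hepatocytes raise a group of these products, the acute-phase proteins, under the control of cytokines. Hepatocytes also hold the enzymes of urea synthesis, amino acid breakdown, fructose and alcohol use, and the oxidation of drugs. Progenitors of the fetal liver give rise to hepatocytes and bile duct cells and take on these functions as they mature.

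The recovered library totals were 6501285 to 8450454 reads in MHPCs and 8670017 to 9682046 reads in adult livers. A gene identifier was paired with a symbol for 12816 of the 32323 genes and for 80 of the 127 members, so 47 members are known only by identifier. Of 8 hepatocyte markers, 6 were matched and all 6 were members, namely ALB, APOA1, TF, SERPINA1, CYP2E1 and CPS1. Their summed levels were 44008 to 80326 FPKM in adult livers against 132 to 141 FPKM in MHPCs, of which most was TF. The rule used these values, so they are a description and no check of the tissue. Of 7 progenitor markers taken from among those the study names, 5 were matched. CD44 stood at 443, 443 and 451 FPKM, NCAM1 at 111, 99.9 and 88.7 FPKM in MHPCs, and KRT7 at 39.7, 27.8 and 32.3 FPKM, whereas AFP was at 0 in all MHPC libraries and EPCAM was above 0 in MHPC 3 only, at 0.479 FPKM. Of the stellate and fibroblast markers, 5 of 6 were matched, and their summed level was 2404 to 3295 FPKM in MHPCs and 68.0 to 201 FPKM in adult livers.

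The members made up 47.4%, 58.4% and 50.7% of the summed FPKM of adult livers 1, 2 and 3. In MHPCs 1, 2 and 3 they made up 0.349%, 0.382% and 0.360%. The 10 most abundant members alone held 22.1%, 38.2% and 27.1% of the adult liver sums, and the other 117 held 25.3%, 20.2% and 23.6%. The 73 genes abundant in both held 8.12% to 8.82% in adult livers and 11.6% to 12.4% in MHPCs. In bulk RNA, fewer cells of a type and less RNA per cell cannot be told apart, and this holds for each gene below.

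**Figure D1:**
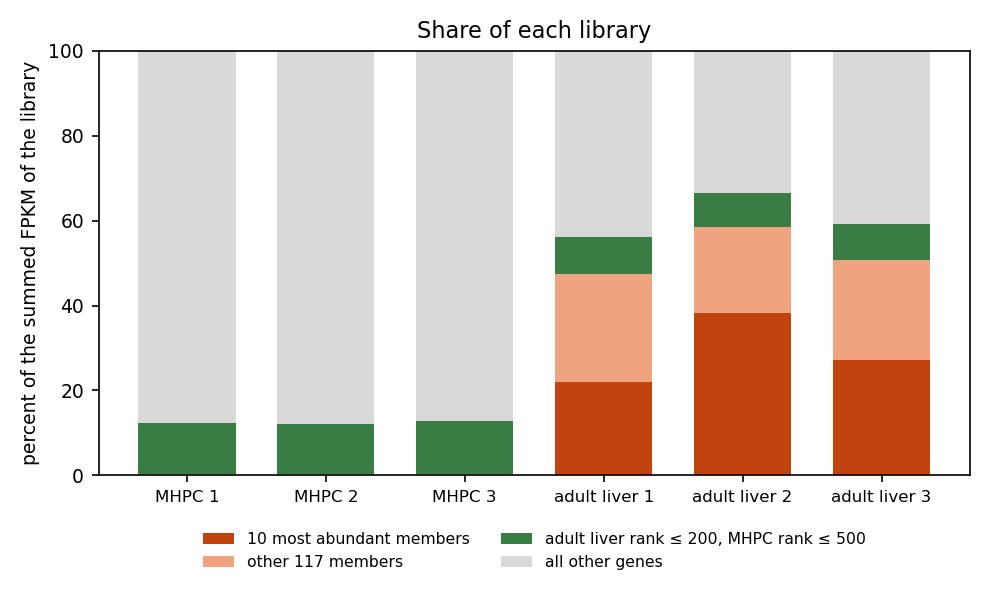
Stacked bars give the percent of each library's summed FPKM held by the 10 most abundant members, the other 117 members, the 73 genes abundant in both groups, and all other genes, with 1 bar per library. The members fill 47.4% to 58.4% of the adult liver bars and under 1% of the MHPC bars, where they are too thin to see.

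The median member had a mean of 866 FPKM in adult liver and of 0.822 FPKM in MHPCs, and 57 members had an adult liver mean of at least 1000 FPKM. In MHPCs, 67 members had a mean under 1 FPKM, 27 lay from 1 to under 10, 24 from 10 to under 100, and 9 at 100 FPKM or more. The members thus ran from genes with no read in the progenitors to genes that were transcribed there at a fair level. All 127 members passed the filter on low values, and 126 were lower in MHPCs by limma at an adjusted p under 0.05, a call made for 15.4% of the 13620 genes tested, while 65.2% were higher. The member that did not pass was ENSCJAG00000017524, which lies next to the MHPC rank limit. The groups did not overlap in any of the 127, and the MHPC libraries lay below the adult livers without overlap in 16.0% of the genes tested (34.7% with size factors). Since the rule used these values, nothing is read from either count. The median log2 difference, MHPC minus adult liver on log2(FPKM + 1), was -8.81 for the members and 1.09 for all genes tested. With median-of-ratios size factors, which centre the bulk of genes, the medians were -9.51 and 0.03, and all 127 members were lower, beside 31.1% of all genes tested, with 31.2% higher.

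**Figure D2:**
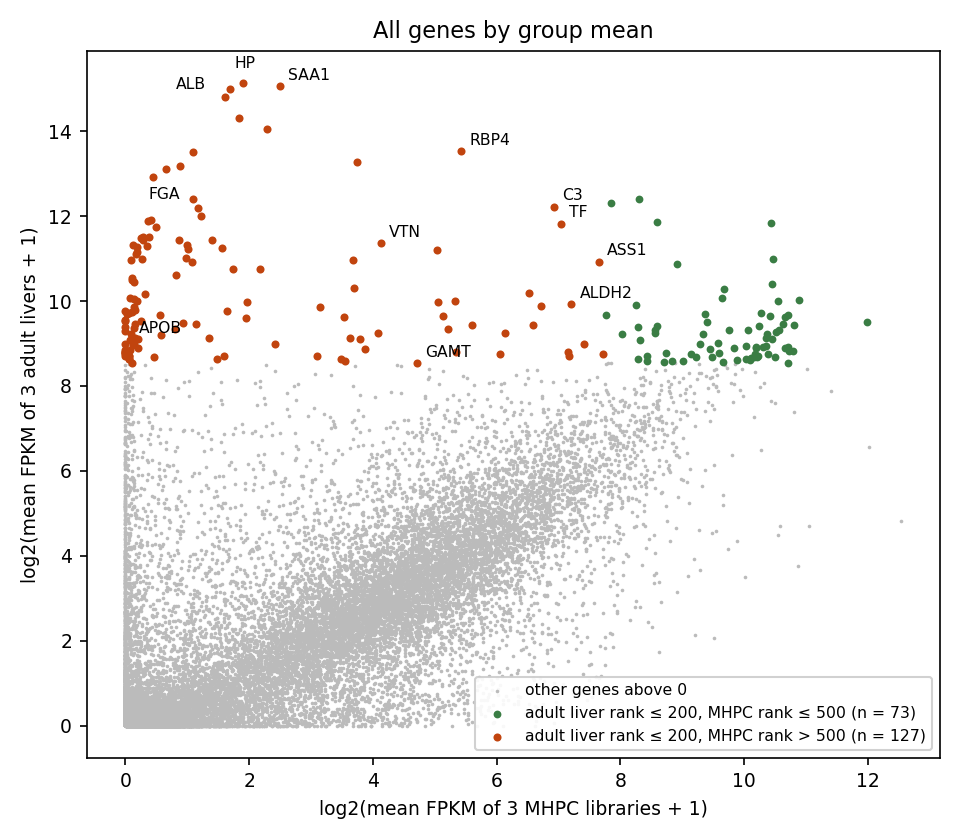
Each point is a gene, with log2 of the mean FPKM plus 1 over the 3 MHPC libraries on the x axis and over the 3 adult livers on the y axis. The 127 members (orange) spread from 0 to a MHPC mean of 210 FPKM, left of the 73 genes abundant in both groups (green), and HP, SAA1 and ALB stand at the top.

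Plasma carriers and protease inhibitors were among the leading members. Of a list of 16 such genes, 12 were matched and 11 were members. HP, which encodes the haemoglobin-binding protein haptoglobin, had the highest adult liver mean, with 20113, 52553 and 35373 FPKM in adult livers 1, 2 and 3 against 3.41, 2.90 and 1.89 FPKM in MHPCs. ALB, which encodes albumin, stood at 52746, 13225 and 32492 FPKM in adult livers and at 2.39, 2.06 and 2.19 FPKM in MHPCs. The MHPC values of ALB rest on 111 reads, and the adult liver mean was 14829 times the MHPC mean. Albumin was highest in adult liver 1 and lowest in adult liver 2, the reverse of haptoglobin.

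SERPINA1, the inhibitor of neutrophil elastase, had 12788, 22588 and 15464 FPKM in adult livers and 3.67, 4.49 and 3.44 FPKM in MHPCs. RBP4, the retinol carrier, had 16862, 7997 and 10654 FPKM in adult livers. Unlike ALB and HP, RBP4 was plainly present in MHPCs, at 31.2, 47.0 and 47.5 FPKM. HPX, the haem carrier hemopexin, had 3679, 8951 and 3710 FPKM in adult livers and at most 1.37 FPKM in MHPCs.

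TF, which encodes the iron carrier transferrin, was the list's highest gene in MHPCs, with 133, 133 and 124 FPKM against 5614, 2100 and 3167 FPKM in adult livers. Its adult liver mean was 27.9 times its MHPC mean. VTN, an adhesive plasma protein, was also transcribed in the clone, at 16.7, 16.8 and 16.0 FPKM against 3298, 1931 and 2679 FPKM. GC, the vitamin D carrier, had 3041, 2874 and 2856 FPKM in adult livers and at most 0.375 FPKM in MHPCs. On the deposited scale GC had the narrowest range of all members across adult livers, with the highest value 1.07 times the lowest, and with size factors the ratio was 1.26. AMBP, which encodes the microglobulin and bikunin precursor, and A1BG had 1623 to 2737 and 1137 to 1684 FPKM in adult livers and at most 0.164 FPKM in MHPCs. Of the 10 most abundant members, 4 had no symbol, and those of rank 8 and 9 were highest in adult liver 1 as ALB was. ENSCJAG00000004950 had 21538, 6249 and 7035 FPKM in adult livers and 10 MHPC reads, and ENSCJAG00000013058 had 15461, 6393 and 8045 FPKM in adult livers and 11.3, 12.2 and 13.6 FPKM in MHPCs. FETUB was the single matched gene of the list outside the members, and it was lower in MHPCs (log2 difference -6.77, limma adjusted p 2.75e-07).

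**Figure D3:**
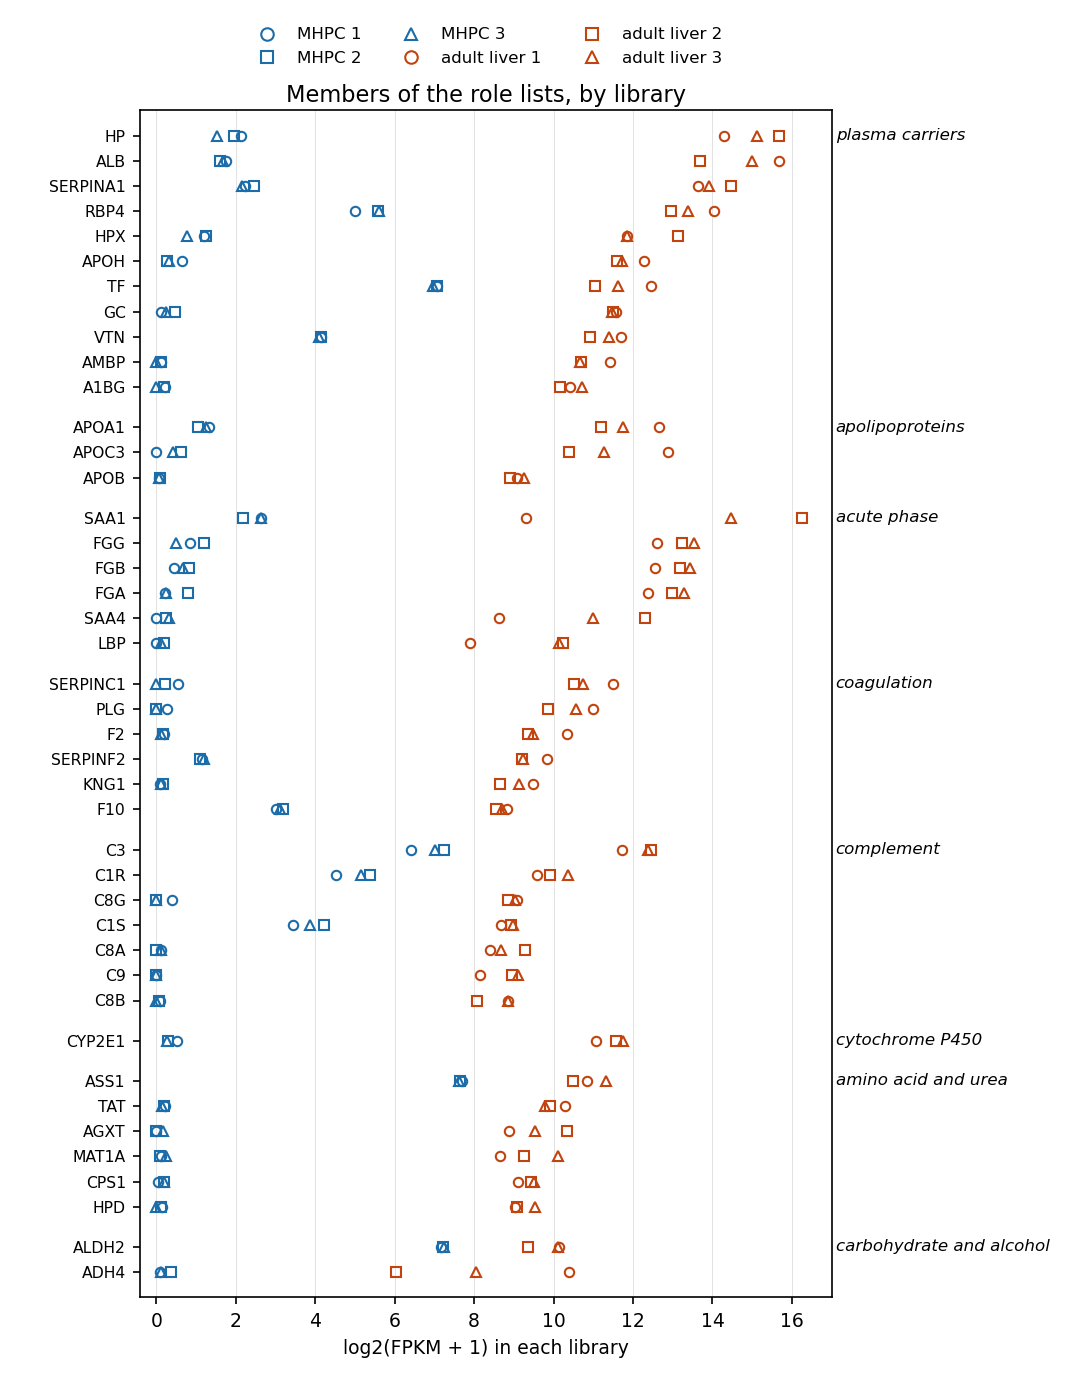
Each row is a member of a role list and each marker 1 library, on log2(FPKM + 1), with MHPCs in blue and adult livers in orange. In every row the 3 MHPC markers lie left of the 3 adult liver markers, and RBP4, TF, VTN, F10, C3, C1R, C1S, ASS1 and ALDH2 are the rows whose MHPC markers lie well to the right of 0.

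Of 10 apolipoprotein genes, 5 were matched and 4 were members. APOA1, the main protein of high-density lipoprotein, had 6467, 2340 and 3460 FPKM in adult livers and 1.53, 1.08 and 1.40 FPKM in MHPCs. APOC3, an inhibitor of triglyceride clearance, had 7532, 1338 and 2451 FPKM in adult livers and 0, 0.535 and 0.348 FPKM in MHPCs, on 3 reads in all. APOH had 4934, 3106 and 3398 FPKM in adult livers, with 9 reads over the MHPC libraries. APOB, the structural protein of very low-density lipoprotein, had the lowest adult liver level of the 4, at 536, 482 and 613 FPKM, and 0.0484, 0.0598 and 0.0555 FPKM in MHPCs. All 4 were lowest in adult liver 2 on the deposited scale, but with size factors only 2 were. APOM, outside the members, was lower in MHPCs (log2 difference -7.73, limma adjusted p 1.58e-06).

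Of 12 acute-phase genes, 8 were matched and 7 were members, and all 7 were lowest in adult liver 1 on both scales. On the deposited scale adult liver 1 was the lowest for 39.4% of members and 23.7% of all genes tested. With size factors these shares were 43.3% and 32.2%. SAA1, a serum amyloid A gene, stood at 637, 78809 and 22531 FPKM in adult livers 1, 2 and 3, a highest value 124 times the lowest. SAA4 stood at 395, 5046 and 2033 FPKM. LBP, which binds bacterial lipopolysaccharide, stood at 239, 1205 and 1117 FPKM. Haptoglobin and the fibrinogen chains had the smaller ranges among these genes. Adult liver 2 was the highest for 4 of the 7 genes on the deposited scale and for all 7 with size factors. The fibrinogen genes account for the change, being highest in adult liver 3 as deposited. The summed level of the 8 matched genes was 38959, 164988 and 94420 FPKM in adult livers 1, 2 and 3. CRP, outside the members, had 114, 228 and 260 FPKM and was 0 in every MHPC library.

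The only matched neutrophil marker of 2 listed, S100A8, was 13.1, 849 and 23.4 FPKM in adult livers 1, 2 and 3, in the order of SAA1, and 0 in MHPCs. The macrophage markers, 3 of 6 matched, summed to 73.7, 83.8 and 40.7 FPKM. The part of these cells in the acute-phase values was not tested. In MHPCs, SAA1 had 5.23, 3.57 and 5.18 FPKM, on 58 reads in all, and SAA4 and LBP rested on 2 and 3 reads. SAA1 and SAA4 share sequence with other amyloid genes, so reads may have been split between copies.

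Some genes without a symbol shared the order of SAA1, which was adult liver 1, 3, 2 from low to high. On the deposited scale 26.0% of members and 10.9% of all genes tested had that order. With size factors the shares were 33.1% and 18.7%. ENSCJAG00000007210, of rank 5, had 426, 46388 and 14409 FPKM in adult livers, and ENSCJAG00000004491, of rank 4, had 5683, 52295 and 27372 FPKM. ENSCJAG00000005847 had 11.6, 1454 and 50.3 FPKM, the widest range of all members, with a highest value 125 times the lowest. ENSCJAG00000006614 and ENSCJAG00000005864 had ratios of 119 and 54.0, and both were lowest in adult liver 1 and highest in adult liver 2. The latter 3 were among the 200 leading genes through adult liver 2, which held 1155 to 1454 FPKM of them while the other livers held at most 88.3 FPKM.

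**Figure D4:**
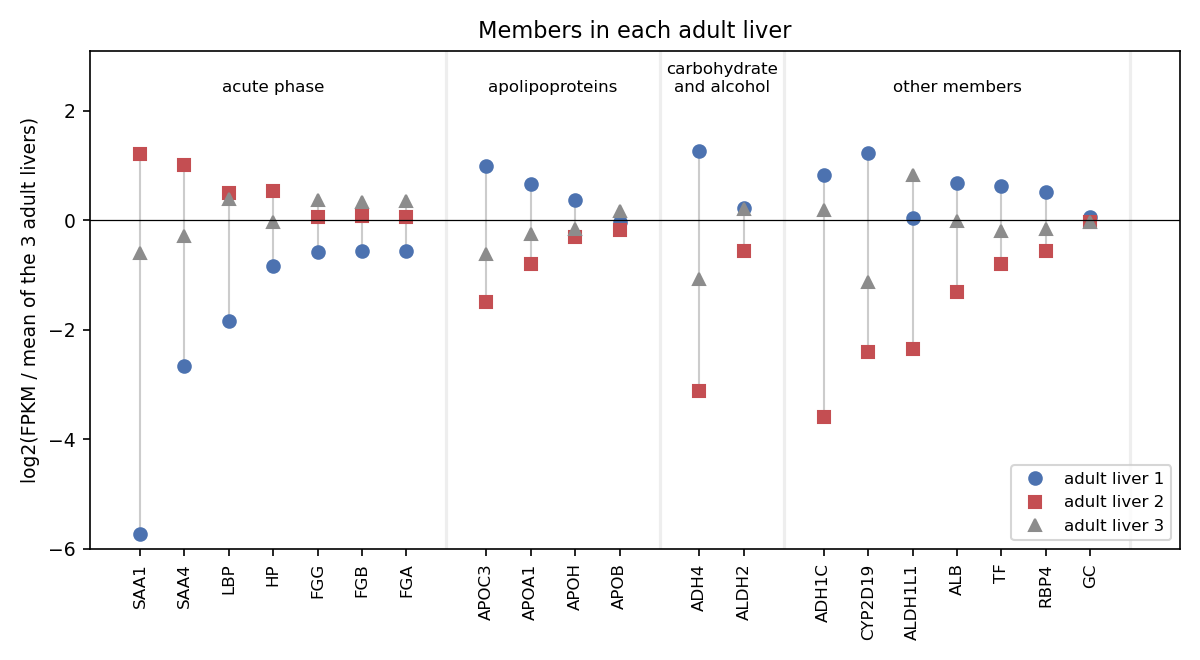
Points give log2 of the FPKM in an adult liver over the mean of the 3 adult livers for named members, with a grey line from the lowest to the highest liver. Adult liver 1 is the lowest point for all 7 acute-phase genes, adult liver 2 is the lowest for ADH4, ALDH2, ADH1C and CYP2D19, and the 3 points of GC nearly coincide.

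All 16 listed genes of coagulation and fibrinolysis were matched, and 9 were members. FGG, FGB and FGA, which encode the chains of fibrinogen, had 6181 to 11938, 6000 to 11142 and 5280 to 10026 FPKM in adult livers. The chains kept the same order, lowest in adult liver 1 and, on the deposited scale, highest in adult liver 3 (adult liver 2 with size factors). In MHPCs they rested on 30, 24 and 14 reads, and the adult liver mean of FGA was 21675 times its MHPC mean. SERPINC1, the thrombin inhibitor antithrombin, had 2903, 1460 and 1721 FPKM in adult livers and 7 MHPC reads. PLG, the precursor of the clot-dissolving enzyme plasmin, had 2029, 936 and 1525 FPKM and 2 MHPC reads. F2, which encodes prothrombin, had 1288, 653 and 714 FPKM and 5 MHPC reads, and KNG1, which encodes kininogen, had 713, 404 and 556 FPKM and 4.

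Some clotting genes had more MHPC reads. F10, the precursor of the protease that cleaves prothrombin, had 7.08, 8.10 and 7.62 FPKM in MHPCs against 455, 372 and 418 FPKM in adult livers. SERPINF2, the inhibitor of plasmin, had 1.21, 1.15 and 1.28 FPKM in MHPCs against 918, 592 and 596 FPKM. The 7 listed genes outside the members were all lower in MHPCs by limma, among them F9 (log2 difference -8.00, adjusted p 2.25e-07) and F7 (-2.54, adjusted p 0.00456). F7 and F12 were present in the clone at 5.39 to 7.82 and 6.42 to 8.78 FPKM.

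The complement genes ranged in MHPCs from 9983 reads for C3 to none for C9 and C6. Of 14 listed genes, 12 were matched and 8 were members. C3, the component on which the complement pathways converge, had 84.5, 150 and 128 FPKM in MHPCs and 3400, 5641 and 5285 FPKM in adult livers. C1R and C1S, the proteases of the first component, had 21.9, 40.3 and 34.3 and 9.95, 17.6 and 13.6 FPKM in MHPCs. Their adult liver levels were 769, 956 and 1314 FPKM for C1R and 406, 484 and 501 FPKM for C1S.

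The genes of the membrane attack complex were at or near 0 in the same cells. C8A, C8B and C8G, which encode the chains of component 8, had 2 MHPC reads each, although their adult liver levels of 339 to 619, 270 to 462 and 463 to 545 FPKM overlapped those of C1S. C9 had no MHPC read and stood at 283, 495 and 548 FPKM in adult livers. C5 and C6, matched genes outside the members, had 8 and 0 MHPC reads and 190 to 250 and 140 to 193 FPKM in adult livers. CFI, a protease that inactivates C3b, and MASP2, a protease of the lectin pathway, lay between, with 42 and 24 MHPC reads and 1.74, 1.85 and 1.20 and 1.06, 0.255 and 1.10 FPKM in MHPCs. These 4 genes outside the members were all lower in MHPCs by limma, with log2 differences from -7.66 to -7.04.

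C2, a protease of the classical pathway, and SERPING1, the inhibitor of C1R and C1S, were members outside the list and were added after their values were seen. C2 had 7.25, 15.2 and 13.4 FPKM in MHPCs against 1046, 1378 and 1378 FPKM in adult livers. SERPING1 had 8.34, 13.5 and 13.5 FPKM in MHPCs against 1514, 2484 and 1958 FPKM. C1R, C1S, C2, C3 and SERPING1 rested on 400 to 9983 MHPC reads, and C5, C6, C8A, C8B, C8G and C9 on 0 to 8. All 5 genes of the former group were lowest in MHPC 1, as were 20 of the 39 members with at least 100 MHPC reads (51.3%), 15 of the 34 such members outside the 5 genes (44.1%), and 30.7% of all genes tested. Of the 5 matched stellate and fibroblast markers, 4 were lowest in MHPC 1 too, with COL1A1 at 1257, 1800 and 1453 FPKM and DCN at 9.65, 41.9 and 29.5 FPKM, while ACTA2 had 496, 271 and 352 FPKM. The part of what these markers show in the complement values was not tested.

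**Figure D5:**
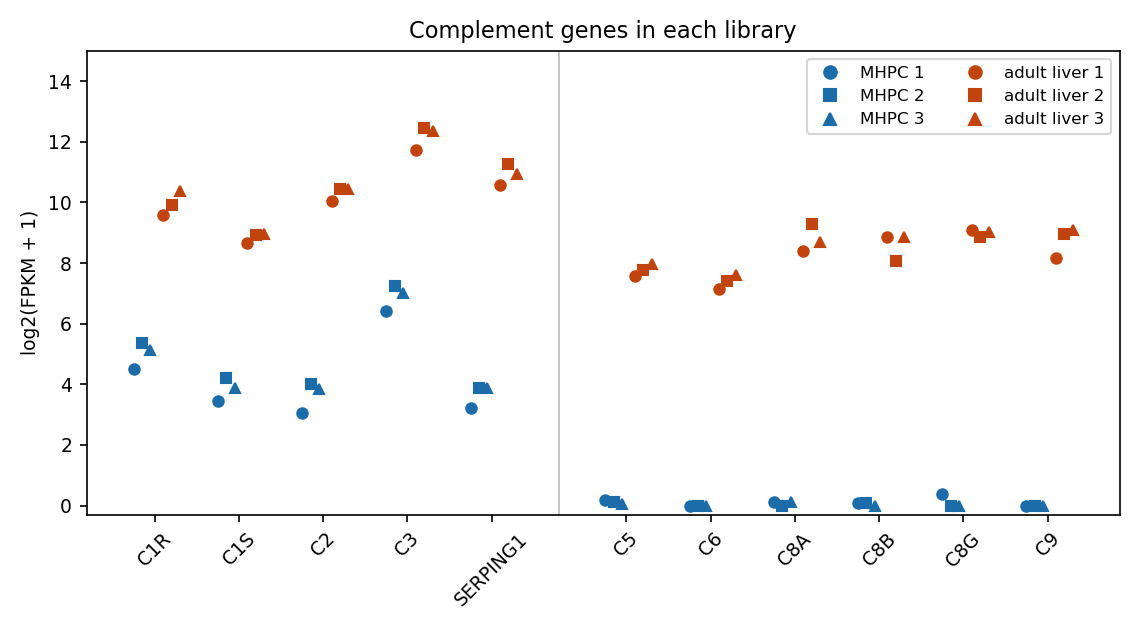
Markers give log2(FPKM + 1) in each MHPC (blue) and adult liver (orange) library for 11 complement genes, 9 of them members. Left of the grey line the MHPC means run from 11.8 to 121 FPKM and MHPC 1 is lowest in all 5 genes, and right of it the MHPC means run from 0 to 0.103 FPKM.

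Of 15 listed cytochrome P450 genes, 8 were matched, and CYP2E1, which oxidizes ethanol and small solvents, was the only member. CYP2E1 had 2159, 3059 and 3446 FPKM in adult livers and 0.445, 0.236 and 0.204 FPKM in MHPCs. The 6 other P450 genes tested were all lower in MHPCs, from CYP2B6 (log2 difference -7.68, limma adjusted p 1.51e-05) to CYP27A1 (-1.37, adjusted p 0.00132). CYP1A2, an oxidase of aromatic amines, was present in MHPCs at 21.4, 45.3 and 23.8 FPKM. CYP2D19 is a P450 member outside the list, and it had 2699, 216 and 523 FPKM in adult livers and 9 MHPC reads.

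Of 10 listed genes of carbohydrate and alcohol metabolism, 4 were matched and 3 were members. ADH4, an alcohol dehydrogenase, had 1335, 64.1 and 262 FPKM in adult livers and 7 MHPC reads. ALDH2, the mitochondrial acetaldehyde dehydrogenase, had 1131, 661 and 1113 FPKM in adult livers and was abundant in MHPCs, at 142, 148 and 150 FPKM. Both were highest in adult liver 1 and lowest in adult liver 2 on both scales. ADH1C, another alcohol dehydrogenase and a member outside the list, had 4023, 187 and 2596 FPKM, a highest value 21.5 times the lowest. PYGL, the liver glycogen phosphorylase, was the matched gene outside the members and was lower in MHPCs (log2 difference -4.28, limma adjusted p 8.05e-06).

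Adult liver 1, which was highest in ADH4, ALDH2, ADH1C and CYP2D19 but lowest in CYP2E1, was also highest in the bile duct and stellate markers. On the deposited scale it was the highest for 50.4% of members and 40.6% of all genes tested. With size factors these shares were 45.7% and 34.4%. The 3 matched bile duct markers of 5 summed to 30.6, 9.84 and 12.4 FPKM in adult livers 1, 2 and 3, with KRT7 at 20.7, 8.18 and 9.63 FPKM. The stellate and fibroblast markers summed to 201, 70.8 and 68.0 FPKM. Their part in the order of the livers was not tested. The alcohol dehydrogenases and CYP2D19 have close relatives, so their reads may have been split between copies.

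Amino acid and urea metabolism gave 6 members from 14 matched genes of 18. ASS1, the argininosuccinate synthase of the urea cycle, was the most abundant named member in MHPCs, with 205, 200 and 195 FPKM against 1822, 1445 and 2563 FPKM in adult livers. CPS1, which catalyses the entry step of the same cycle, had 10 MHPC reads and 553, 695 and 727 FPKM in adult livers. Genes of the same cycle thus lay far apart in the clone, with the adult liver mean 9.71 times the MHPC mean for ASS1 and 6234 times for CPS1. OTC, the cycle's carbamoyl transferase and not a member, had no MHPC read and 170, 68.5 and 128 FPKM in adult livers.

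TAT, which starts tyrosine breakdown, had 1248, 960 and 877 FPKM in adult livers and 5 MHPC reads, and HPD, of the next step, had 518, 537 and 746 FPKM and 2. AGXT, the peroxisomal enzyme that detoxifies glyoxylate, had 473, 1292 and 744 FPKM and 1 MHPC read. MAT1A, which makes S-adenosylmethionine in liver, had 405, 606 and 1109 FPKM and 4 MHPC reads. The 8 listed genes outside the members were all lower in MHPCs by limma, including TDO2 (log2 difference -7.18, adjusted p 2.41e-07) and FAH (-2.70, adjusted p 7.17e-06). FAH, the last enzyme of tyrosine breakdown, was present in MHPCs at 19.2, 21.7 and 24.3 FPKM. FTL, the ferritin light chain, was the sole matched gene of 5 in a list of metallothioneins and iron storage, and it was no member, with 1337 to 1409 FPKM in MHPCs and 3412 to 3855 FPKM in adult livers.

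Over the 9 role lists, 75 of 108 genes were matched and 44 were members. Of the 31 others, 30 were tested and all 30 were lower in MHPCs, with FTL the one that lost its call under quantile normalization (log2 difference -0.26, limma adjusted p 0.0540). The lists were drawn from known adult liver products, and their direction is no independent evidence.

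Further members with a symbol lay outside the lists and are named after their values were seen. ITIH3 and ITIH4, inter-alpha-trypsin inhibitor heavy chains, had 1987 to 3535 and 1629 to 2319 FPKM in adult livers and at most 1.43 FPKM in MHPCs. PZP, a broad protease inhibitor, had 911, 3917 and 2705 FPKM in adult livers, and CP, the copper-carrying oxidase ceruloplasmin, had 366, 1321 and 515 FPKM. LRG1, a leucine-rich plasma glycoprotein, had 426, 1785 and 829 FPKM. PZP, CP and LRG1 shared with SAA1 the order adult liver 1, 3, 2 from low to high. That order was found in 26.0% of members and 10.9% of all genes tested on the deposited scale. FGL1, a fibrinogen-like hepatokine, had 1522, 2876 and 1758 FPKM, with 1.49, 0.492 and 0.960 FPKM in MHPCs.

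Several members serve lipid and small-molecule metabolism. FASN, the fatty acid synthase, had 98.6, 93.2 and 82.3 FPKM in MHPCs and 1203, 648 and 1634 FPKM in adult livers. EPHX1, the microsomal epoxide hydrolase, had 32.0, 36.8 and 33.4 FPKM in MHPCs and 1277, 459 and 678 FPKM in adult livers. UGT1A1, which conjugates bilirubin, had 1.67, 1.47 and 1.49 FPKM in MHPCs and 791, 368 and 509 FPKM in adult livers. AKR1C1, an aldo-keto reductase, had 35.5, 35.0 and 38.5 FPKM in MHPCs and 979, 299 and 660 FPKM in adult livers. ALDH1L1, a folate enzyme, had 894, 169 and 1535 FPKM in adult livers, with 2.52, 1.99 and 1.81 FPKM in MHPCs. UGT1A1 and AKR1C1 belong to families of near-identical genes, and their reads are uncertain.

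Other members included membrane, iron and signalling genes. TFR2, the liver's sensor of transferrin iron, had 344, 341 and 431 FPKM in adult livers and 5 MHPC reads. HPN, the surface protease hepsin, had 549, 386 and 493 FPKM and also 5. ANPEP, aminopeptidase N, had 13.1, 18.3 and 16.2 FPKM in MHPCs and 1145, 340 and 336 FPKM in adult livers. IGFBP4, a carrier of insulin-like growth factors, had 53.0, 79.7 and 75.4 FPKM in MHPCs against 928, 258 and 641 FPKM. SLC5A6, a vitamin transporter, had 39.4, 39.6 and 40.3 FPKM in MHPCs, whereas adult livers had 74.6, 706 and 545 FPKM. Adult liver 1 lay closest to the clone for SLC5A6. CCDC152 had 786, 221 and 512 FPKM in adult livers and 2.99 to 5.51 FPKM in MHPCs, but in human it overlaps another gene and the counting is not stated to use strand.

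The members with the highest MHPC means lay next to the rule's MHPC limit. ENSCJAG00000017524 had 219, 206 and 206 FPKM in MHPCs and 247, 731 and 322 FPKM in adult livers, so its groups came within 27.8 FPKM of each other. ASS1 followed, and then TMBIM6, an endoplasmic reticulum protein that limits cell death, with 164, 176 and 168 FPKM in MHPCs and 526, 431 and 568 FPKM in adult livers. ALDH2 and ENSCJAG00000004936 came next, the latter with 144, 140 and 146 FPKM in MHPCs and 407, 472 and 370 FPKM in adult livers. MPC2, a subunit of the mitochondrial pyruvate carrier, had 136, 133 and 155 FPKM in MHPCs and 511, 346 and 483 FPKM in adult livers.

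At the other end, 12 members had no read in any MHPC library and 42 more had 1 to 10 reads over the 3 libraries. The 12 were C9, CCL16, HBD and 9 genes without a symbol. For C9, a floor of 3 reads over the MHPC libraries together puts the adult liver mean at least 8781-fold higher. CCL16, a chemokine made in liver, had 1200, 551 and 853 FPKM in adult livers, at least 2315-fold above the same floor. HBD, a haemoglobin chain gene, had 1075, 833 and 99.9 FPKM in adult livers. HBD belongs to red cells, and of 4 erythroid markers 2 were matched, with ALAS2 at 16.9, 18.9 and 2.62 FPKM in adult livers and so lowest in adult liver 3 as well. The part of red cells in the HBD values was not tested. HBD has close copies too, so its reads are uncertain.

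Among themselves the MHPC libraries were close. In the 39 members with at least 100 MHPC reads, the highest MHPC library was a median 1.18 times the lowest, against 1.77 times among adult livers for the same genes. The largest MHPC ratio was 2.09, and it was the only one of 2 or more. It belonged to C2. These figures compare cultures of 1 clone with separate animals.

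Among adult livers the highest value of a member was a median 1.99 times the lowest. It was at least 2 times the lowest for 63 members (49.6%) and at least 10 times for 13 (10.2%). The corresponding shares over all genes tested were 40.2% and 6.09%, and over the 73 genes abundant in both groups they were 9.59% and 1.37%. The members thus varied between animals more widely than the genes abundant in both groups, as a description and without a test. The rule ranks means, so a gene very high in 1 adult liver can enter through that liver, which adds to the wide ranges. With ranks by the median, 123 genes were chosen, of which 54 had at least a 2-fold and 8 at least a 10-fold range. Of the 13 members with at least 10-fold range, 6 were lowest in adult liver 1 and highest in adult liver 2, and 6 were highest in adult liver 1 and lowest in adult liver 2. The remaining member was HBD. The former 6 hold SAA1 and SAA4, and the latter 6 hold ADH1C, ADH4 and CYP2D19.

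The smallest ratios after GC on the deposited scale were those of C8G (1.18), F10 (1.22), C1S (1.24) and COX7A1 (1.24), the last a subunit of cytochrome c oxidase with 436, 352 and 403 FPKM in adult livers. Adult liver 2 was the lowest for 61 members, adult liver 1 for 50 and adult liver 3 for 16. Over all genes tested, adult liver 2 was the lowest for 54.9%, a share that stood at 35.9% with size factors, when it was the lowest for 38 members. The order of the livers in a given member therefore rests partly on the scale.

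Near the adult liver limit of rank 200, the members just inside were ENSCJAG00000013355, TFR2 and GAMT, with means of 383, 372 and 371 FPKM. Just outside lay HSD11B1, CES3 and MTARC1, with 364, 362 and 360 FPKM. Near the MHPC limit of rank 500, ENSCJAG00000017524, ASS1 and TMBIM6 lay inside with MHPC means of 210, 200 and 170 FPKM. CTSD, ENSCJAG00000013062 and CD81 lay outside with 217, 231 and 261 FPKM. The adult liver limit falls where neighbouring genes differ by a few FPKM, less than the spread between animals.

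When a library was left out of the ranking, the members chosen from the rest could be looked up in it. Of 125 genes chosen without adult liver 1, 99 (79.2%) ranked 200 or better in adult liver 1. The same held for 96 of 125 (76.8%) in adult liver 2 and for 109 of 129 (84.5%) in adult liver 3. Of the 127 members, 102 were chosen in all 6 rankings that each left out 1 library.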

How the data were processed

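The authors sequenced RNA of 3 MHPC and 3 adult liver samples as single-end reads and deposited 1 table of FPKM values. The submitters' processing notes name TopHat2 2.0.9, Bowtie2 2.0.6 and HTSeq 0.6.1, with no roles; the genome build and annotation are not given in the sources used here. The study tested counts, whereas the deposited unit is FPKM, so the main comparison was of log2(FPKM + 1) with limma 3.58.1 (R 4.3.3, trend, Benjamini-Hochberg adjustment, threshold 0.05) over 13620 genes with at least 1 FPKM in at least 3 libraries. The added 1 shrinks the fold changes of genes with low values. Reads, lengths and totals were worked back from the deposited steps (100% of the values above 0 came out whole) with Python 3.11.15, numpy 2.4.6 and pandas 2.3.3. A recovered length can be too short by a common factor, so read counts are lower bounds, and read floors cover counting error only. Groups and numbers follow the labels; same-numbered samples did not deviate together (correlations -0.01, -0.00 and -0.07), so no pairing was used. No libraries were copies of each other.

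The members and lists were chosen with earlier results of these data known. Named were the 5 most abundant members of each list, the 10 most abundant members, the 5 with the widest and narrowest adult liver ranges, the 5 highest and lowest in MHPCs (lowest: 12 tied at 0) and genes next to the limits; others were added after their values were seen. Some listed genes are not reported here. Alternatives were another pseudocount, filters, scalings, rank rules and limits, leaving out each library, and a replicate block. Limma-voom on recovered reads was added after the data were seen.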

Additional observations from a re-analysis of the deposited data

How the results depend on the processing

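Between 124 and 127 members were called lower in MHPCs under every scaling, filter and omission tried, a count that the choice of members fixes and that is no sign of stability. Scaling moved the counts over all genes: 8878 higher and 2099 lower as deposited became 4246 and 4238 with size factors, 4248 and 4293 by limma-voom on recovered reads (added after seeing the data) and 5472 and 3561 with quantile normalization. Leaving out a library gave 8261 to 8893 and 1896 to 2325. With the replicate number as a block the counts were 8690 and 2072. The numbers do not pair the samples, and the block moved no count by over 1.5 times.

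The number of members was 127, and 78 with an adult liver limit of rank 100 (125 to 129 without a library). The median log2 difference of -8.81 became -9.53 with size factors and the 125 members they choose, -9.75 with the limit of rank 100 and -11.04 with a pseudocount of 0.1. The 13 members with a 10-fold range among adult livers became 8 with ranks by the median, 8 with the geometric mean, 7 with the limit of rank 100, and 3 to 14 without a library, namely 6 without adult liver 1 and 3 without adult liver 2. The 63 with a 2-fold range became 41 with the limit of rank 100 and 28 to 64 without a library, namely 28 without adult liver 1 and 32 without adult liver 2. For 74 single genes under 15 settings, 1109 values kept their direction and side of the threshold, and 1 (FTL under quantile normalization, -0.26, adjusted p 0.0540) lost its call. With 3 samples a group, the adult liver ranges rest on single animals, and values from 1 to 10 reads are coarse.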
